A study of Ovis aries with 16 samples.

Results

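MicroRNAs (miRNAs) are short RNAs that silence messenger RNAs through base pairing, mainly by their seed, the stretch near the 5′ end. The public registry numbers miRNA families in the order in which they were submitted, so a high number marks a late entry. The names from miR-4251 to miR-4804 came mainly from deep sequencing of human samples. Many of them have no known counterpart outside primates, and for most no function is established. They were described here in sheep blood as all rows of the count table, either arm, whose number lay between those 2, both included, leaving out miR-4454, miR-4488 and miR-4532. The rule used names only and no measured value. It found 177 of the 1105 names in the table, which were 16.5% of its 1075 miRNA names. They covered 162 of the 554 numbers in that range, 104 of them with no arm in the name, 39 with a 5p and 34 with a 3p arm. The names are human, and whether sheep make these RNAs was not tested. In the RefSeq gene table for the sheep assembly ARS-UI_Ramb_v3.0, which lists 106 miRNA genes, none of the 177 names had a gene of the same number, while 118 of the other 898 miRNA names had one.

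Small RNA was sequenced from serum of adolescent sheep with a normal heart of 2 ventricles, and from extracellular vesicles (EVs), which are small particles with a membrane that cells shed and which were taken from serum on a size-exclusion column. All animals had a Fontan operation, which leads the systemic venous blood to the lungs without a pumping chamber, and no sham-operated group is used here. Of the 16 libraries, 3 were of EVs after surgery (animals D, E and F), 5 of EVs before it (animals A to E), 3 of serum after surgery (again D, E and F) and 5 of serum before it (again A to E). Animal D was sampled 6 days and animals E and F 7 days after surgery. The animals are the letters in the sample titles. Library totals ran from 65537 to 639207 counts, and each library's own total is given below. Of 9 red blood cell miRNAs 8 were listed, and these 8 were above 0 in all 16 libraries. Their summed share was 21.5% to 29.1% in EVs after surgery, 16.1% to 57.5% in EVs before, 24.6% to 52.0% in serum after and 21.3% to 68.0% in serum before surgery. Their part in the results below was not tested.

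The zeros of the table were shared between libraries, which limits what a 0 means for these names. The 177 names fell with the rest of the table into 8 sets of libraries with nearly the same zeros (phi coefficient at least 0.895 within and at most 0.483 between sets). In 1 serum set (animals E and F after surgery and animal B before it), 108 of the 177 names were at 0 in all 3 libraries (61.0%, against 46.1% of the other miRNA names), and the smallest sum of any name not at 0 in all of them was 29. In EVs of animals E and F after surgery and of animals A, B and E before it, 56 names were at 0 in all 5 libraries (31.6%, against 24.5%), with a smallest sum of 44. Sums between 0 and these values did not occur in either set. A 0 is therefore given as listed at 0, with no limit of detection. No fold change of a single name is given against a group that is at 0 throughout.

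The 177 names together held a small part of each library. Their share of all counts was 1.99%, 2.78% and 6.42% in EVs of animals D, E and F after surgery, against 8.08%, 5.25%, 2.26%, 4.32% and 7.22% in EVs of animals A to E before it. In serum the share was 2.22%, 1.14% and 0.845% in animals D, E and F after surgery, against 1.68%, 0.635%, 0.609%, 7.29% and 1.46% in animals A to E before it. The groups overlapped in every comparison, and serum of animal D before surgery stood apart from the other serum libraries. The widest Wilson 95% interval spanned 0.205 percentage points on each side. Such intervals cover the error of counting alone. Whether PCR copies of 1 molecule were counted as several is not given in the sources used here.

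The summed counts behind these shares differed less between libraries than the shares did. They were 9432, 4445 and 5963 in EVs of animals D, E and F after surgery, against 5485, 3443, 12821, 11942 and 6167 in EVs of animals A to E before it. In serum they were 11517, 2008 and 2215 after surgery, against 2654, 3510, 3894, 5611 and 2278 before it, in the same order of animals. The library totals in that order were 473978, 160079 and 92810 for EVs after surgery, 67882, 65537, 567514, 276696 and 85449 for EVs before, 517833, 176789 and 262101 for serum after and 158011, 552833, 639207, 76988 and 155815 for serum before surgery. The highest library total was 9.75 times the lowest, the highest summed count of the 177 names 6.39 times the lowest and the highest share 13.3 times the lowest.

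The 4 libraries with the lowest totals, 3 of EVs and 1 of serum and all taken before surgery, had shares of 5.25% to 8.08%. The 4 with the highest totals had shares of 0.609% to 2.26%. Of the 177 names, 40 were above 0 in all 16 libraries. Their median count was 46.3 both in the 4 libraries with the lowest totals and in the 4 with the highest. Scaled to a library total of 1000000 (CPM), the same medians were 629 and 82.6 CPM. For the 322 other miRNA names above 0 in all libraries, the median counts were 49.5 and 79.8, and the medians were 686 and 141 CPM. In these 8 libraries the share and the CPM of the names were thus higher where the library total was lower, and the part of the total in the results below was not tested.

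**Figure D1:**
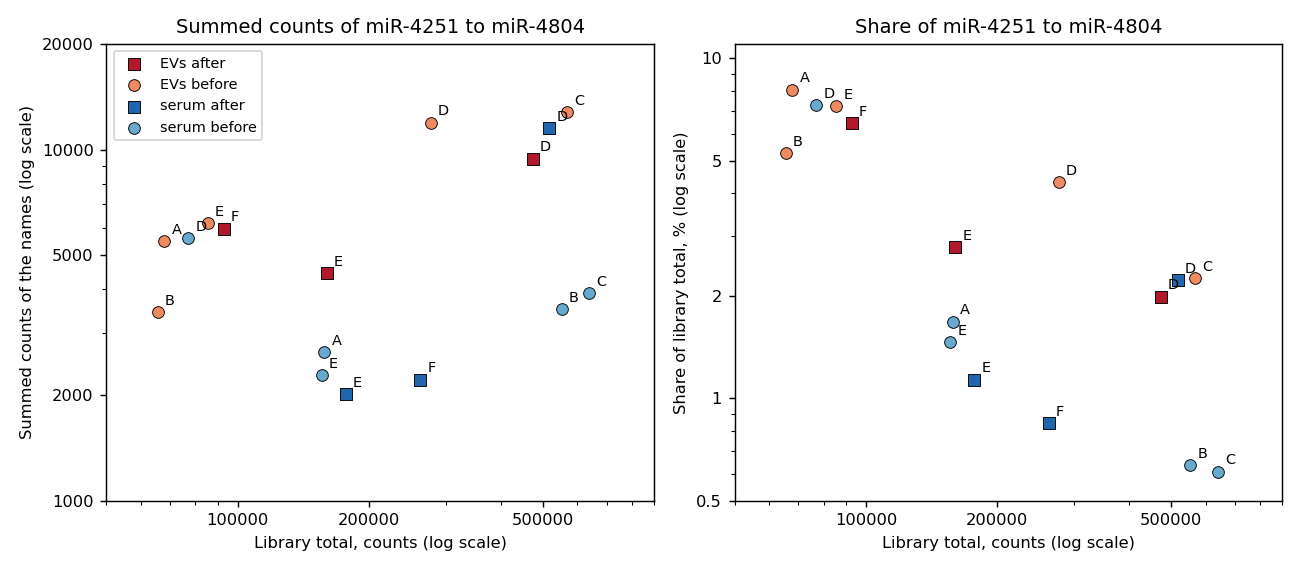
Summed counts (left) and share of the library total in % (right) of the 177 names against the library total in counts, all axes on a log scale. Each point is 1 library, its letter is the animal, squares are after and circles before surgery; the 4 libraries with the lowest totals have shares of 5.25% to 8.08%, and those with the highest totals 0.609% to 2.26%.

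The differences in share did not pass a test over libraries. The means were compared by exact permutation, 2-sided, with p adjusted over 8 tests. These tests took the libraries as independent and did not use the pairing, although some or all animals were in both groups of each comparison. The share was 3.73% ± 2.37 in EVs after surgery and 5.43% ± 2.32 before it (SD, n = 3 and 5, exact p = 0.339, adjusted 0.452). In serum it was 1.40% ± 0.727 after and 2.33% ± 2.81 before surgery (n = 3 and 5, exact p = 0.821, adjusted 0.821). The difference of EVs and serum was 3.09 percentage points before surgery (n = 5 each, exact p = 0.103, adjusted 0.413) and 2.33 points after it (n = 3 each, exact p = 0.200, adjusted 0.413, where 0.1 is the smallest p this design allows). In bulk libraries made from a fixed input of RNA, more copies of these RNAs and fewer copies of all others cannot be told apart.

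Serum of animal D before surgery enters 2 of these 4 differences. Without it, serum after surgery was 0.305 percentage points higher than before instead of 0.933 points lower (exact permutation p = 0.571). The difference of EVs and serum before surgery was then 4.33 points (exact permutation p = 0.0159, not adjusted). Each library was left out in turn, and this one is given here because its share stood apart. The p without it follows that choice and is not read as a test of the difference. Within animals, the share after surgery was 0.461 times that before in EVs of animal D and 0.385 times in EVs of animal E, while the library totals were 1.71 and 1.87 times as high. In serum it was 0.305 times in animal D and 0.777 times in animal E, with totals 6.73 and 1.14 times as high. The share in EVs over that in serum was 4.81, 8.27, 3.71, 0.592 and 4.94 in animals A to E before surgery, and 0.895, 2.45 and 7.60 in animals D, E and F after it. It was below 1 in animal D at both times.

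These names were at 0 more often than those of any other range of registry numbers compared here. Of 2832 entries (177 names in 16 libraries) 34.2% were listed at 0, against 26.3% for the other miRNA names, and the share of zeros was 25.7% in EVs and 42.7% in serum. For miR-1 to miR-500, which hold most long-known and conserved families, 20.9% of entries were at 0. The values were 30.4% for miR-501 to miR-1000, 27.3% for miR-1001 to miR-2000, 30.2% for miR-2001 to miR-4250, 29.4% for miR-4805 to miR-6714 and 28.7% for miR-6715 and later. The miR-548 names, a large primate family of which 9 were listed, were at 0 in 49.3% of entries. The rise in zeros with the registry number was therefore not steady, and the later names were at 0 less often than miR-4251 to miR-4804. The 154 names from miR-6715 to miR-6895, also late human entries, held 4.10% to 14.9% of counts per library, against 0.609% to 8.08% for the 177 names.

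**Figure D2:**
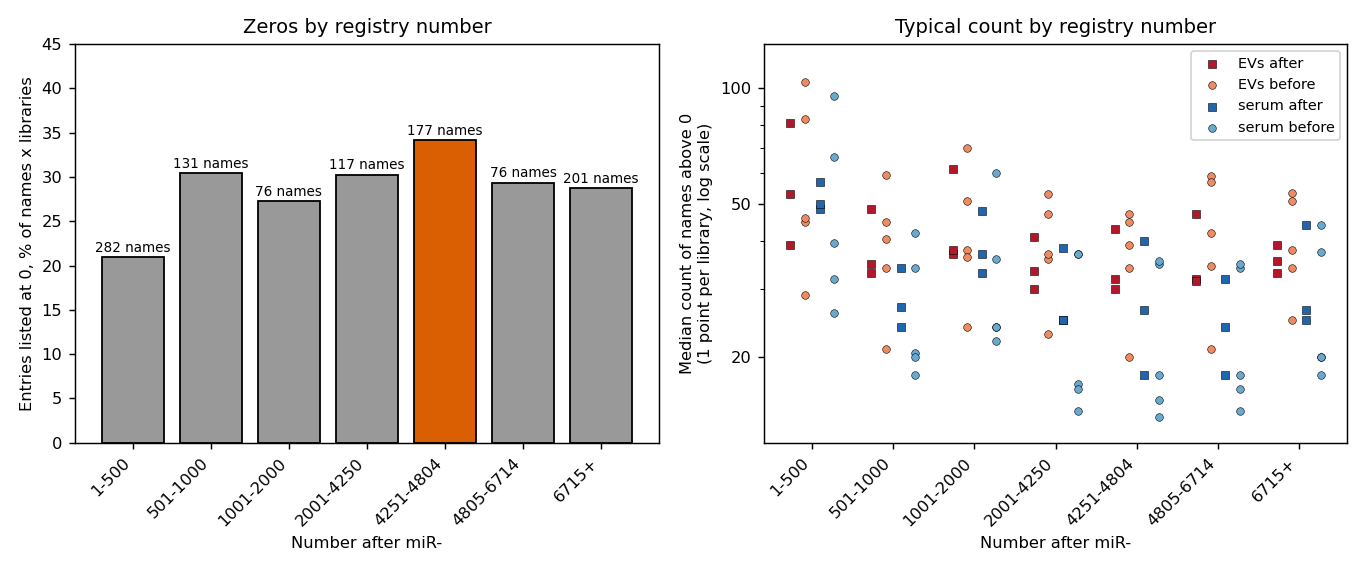
Entries listed at 0 in % of names times libraries (left, bars, miR-4251 to miR-4804 in orange, the number of names above each bar) and the median count of the names above 0 in each library (right, log scale, 1 point per library) by the number after miR-. The orange bar is at 34.2% and the others lie between 20.9% and 30.4%; in the right panel miR-4251 to miR-4804 run from 14 to 47 counts.

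Where a name was above 0, its count was low. The median count of the names above 0 was 30 to 43 in EVs after surgery, 20 to 47 in EVs before, 18 to 40 in serum after and 14 to 35.5 in serum before surgery. In 113 of the 177 names (63.8%, against 53.2% of the other miRNA names) the highest count in any library was under 100. Only miR-4459 and miR-4649-3p reached 1000 counts in any library (1.13%, against 8.58%), and miR-4470 and miR-4637 stayed under 10 in all 16. The median over names of the mean level was 126 CPM for the 177 names and 175 CPM for the other miRNA names.

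The number of the 177 names above 0 was 139, 121 and 118 in EVs of animals D, E and F after surgery, against 118, 116, 159, 161 and 120 in EVs of animals A to E before it. In serum it was 119, 68 and 68 after surgery, against 114, 68, 130, 130 and 115 before it. Libraries with the same number largely share their zeros, as described above. The means were 126 ± 11.4 after and 135 ± 23.1 before surgery in EVs (SD, n = 3 and 5, exact permutation p = 0.625, adjusted 0.714) and 85 ± 29.4 after and 111 ± 25.5 before surgery in serum (exact permutation p = 0.339, adjusted 0.452). The difference of EVs and serum was 23.4 names before surgery (exact permutation p = 0.206) and 41 names after it (exact permutation p = 0.200), both with an adjusted p of 0.413. Within animals, more names were above 0 in EVs than in serum in 5 of 5 pairs before surgery, by 4 to 48 names, and in 3 of 3 pairs after it, by 20 to 53. The within-animal differences gave an exact sign permutation p of 0.0625 before and 0.25 after surgery, the smallest that 5 and 3 pairs allow. With each library thinned to 65537 counts, 118 to 133 names were above 0 in EVs after surgery, 116 to 159 in EVs before, 62 to 109 in serum after and 63 to 129 in serum before surgery.

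More of the names were above 0 throughout the EV libraries than throughout the serum libraries. Above 0 in all 8 EV libraries were 94 names (53.1%, against 62.9% of the other miRNA names), and above 0 in all 8 serum libraries were 46 (26.0%, against 42.7%). In all 8 serum libraries 14 names were at 0, and in all 8 EV libraries 4 were at 0, which were miR-4470, miR-4637, miR-4760-5p and miR-4802-5p. Above 0 in every EV library and at 0 in every serum library were miR-4273, miR-4423-3p, miR-4482-5p, miR-4534, miR-4538 and miR-4758-5p, 6 names or 3.39%, against 2.0% of the other miRNA names. The names given in these lists were chosen after their values were seen, and no name had the reverse pattern.

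**Figure D3:**
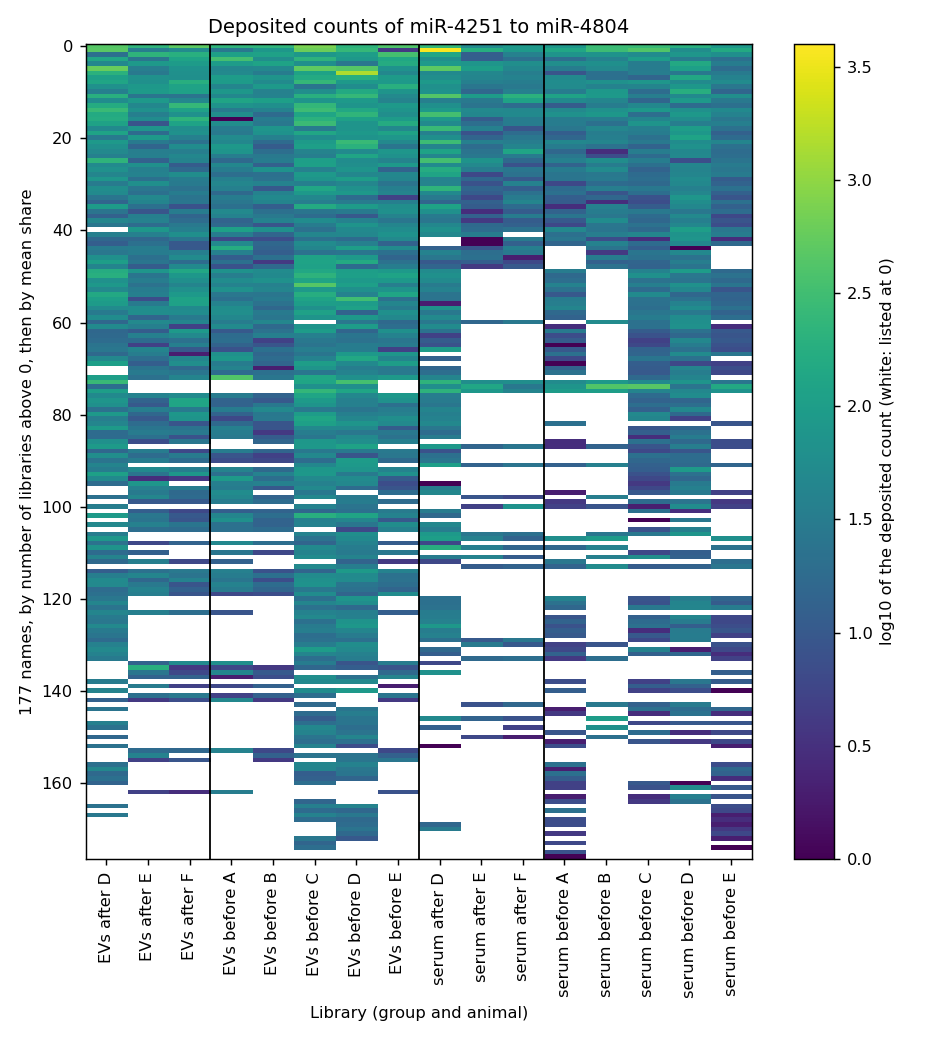
Deposited counts of the 177 names (down the page, by number of libraries above 0 and then by mean share) in the 16 libraries (across), as log10 of the count, with entries at 0 in white. The top 40 names are above 0 in all libraries; the white blocks repeat between serum of animals E and F after and B before surgery, and between EVs of animals E and F after and A, B and E before it.

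The 12 names with the highest mean share over the 16 libraries were, in this order, miR-4501, miR-4649-3p, miR-4458, miR-4781-5p, miR-4730, miR-4707-3p, miR-4459, miR-4741, miR-4782-5p, miR-4290, miR-4440 and miR-4731-3p. Together they held a mean share of 0.900% of all counts, against 3.39% for all 177 names. All but miR-4741 were above 0 in all libraries. EVs weigh more in this order than serum, since their shares were higher. Ranked by mean CPM within a material, 10 of the 12 names were among the first 12 in EVs and 7 in serum. In serum, miR-4322 and miR-4783-5p, which are not among the 12, ranked 3 and 4, with means of 523.2 and 522.9 CPM. No single name held most of the counts, since 7 to 33 names were needed to reach 50% of the summed counts of the 177 names. Both extremes came from serum of animal D, the fewest names after surgery and the most before it.

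miR-4501, the name with the highest mean share, led the 177 names in 6 libraries, 5 of EVs and 1 of serum. It had 952, 1387 and 5387 CPM in EVs of animals D, E and F after surgery, against 3197, 3326, 1316, 777 and 4693 CPM in EVs of animals A to E before it. In serum it had 460, 305 and 320 CPM in animals D, E and F after surgery, against 506, 514, 424, 2429 and 526 CPM in animals A to E before it. Every EV library was above every serum library but that of animal D before surgery, which was among the 4 libraries with the lowest totals. In the fits given further below, miR-4501 did not pass the threshold between EVs and serum. Its log2 fold change was 0.58 (SE 0.49, adjusted p = 0.619 by edgeR) before surgery. After surgery it was 1.41 (SE 0.65, adjusted p = 0.640 by edgeR). In counts, miR-4501 ran from 54 to 747.

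miR-4649-3p stood far apart in 1 library. Serum of animal D after surgery held 3622 of its counts, which was 31.4% of the summed counts of the 177 names there, and 4 to 617 counts in the other 15 libraries. Its level was 998, 219 and 582 CPM in EVs of animals D, E and F after surgery, against 412, 1236, 1087, 911 and 46.8 CPM in EVs of animals A to E before it. In serum it was 6995, 996 and 332 CPM after surgery, against 867, 539, 656, 766 and 995 CPM before it. Outside the library of animal D after surgery, serum and EVs overlapped.

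miR-4459 and miR-4741 were likewise high in 1 EV library each. miR-4459 had 1472 counts in EVs of animal D before surgery, where it led the 177 names, and its level there was 5320 CPM, against 181 to 700 CPM in the 3 EV libraries after surgery and 206 to 737 CPM in the other 4 before it. miR-4741 had 418 counts in EVs of animal A before surgery (6158 CPM), against 137 to 453 CPM in EVs after surgery and 231 to 1006 CPM in the other 4 EV libraries before it. In serum miR-4741 was at 0 in 5 of 8 libraries and had 43 counts in animal D after surgery, against 17 and 42 counts in animals C and D before it.

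miR-4458 carries the seed of the let-7 family, miRNAs known for their role in the timing of development and in holding back cell growth. It had 21, 217 and 189 counts in EVs of animals D, E and F after surgery, against 110, 115, 80, 100 and 342 counts in EVs of animals A to E before it. In serum it had 136, 12 and 38 counts after surgery, against 74, 70, 55, 79 and 62 counts before it. The 9 let-7 and miR-98 names with this seed, summed, had 3514 to 20947 counts per library, and over all libraries 106 times as many as miR-4458. In the library with the highest let-7 sum, EVs of animal D before surgery, miR-4458 had 100 counts, and in that with the lowest, EVs of animal B before surgery, it had 115.

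Other names also share a seed with a conserved family, and these pairs were chosen after values were seen. miR-4465 had 0 to 66 counts, against 123 to 3546 for miR-26a-5p and miR-26b-5p, and miR-4770 had 0 to 31 counts, against 44 to 4000 for miR-143-3p. miR-4429 had 0 to 158 counts, against 391 to 4863 for 5 miR-320 names. miR-4262 came closest to its family, with 0 to 112 counts against 40 to 379 for 3 miR-181 names, ranges that overlap, and over all libraries these 3 names had 2.88 times its counts. Reads that differ by few bases can be split between such names, and the counting rule is not given in the sources used here.

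The other 7 of the 12 names, for which no function is named here, ranged widely between libraries of 1 group. miR-4781-5p ran from 162 to 1304 CPM in EVs after surgery, 304 to 4906 in EVs before, 67.9 to 120 in serum after and 70.5 to 416 in serum before surgery. miR-4707-3p ran from 219 to 1236 CPM in EVs after, 678 to 1630 in EVs before, 176 to 946 in serum after and 51.6 to 1377 in serum before surgery. miR-4730, miR-4782-5p, miR-4290, miR-4440 and miR-4731-3p had their highest serum level in animal D before surgery, between 688 and 2377 CPM, against 23.5 to 386 CPM in the other 4 serum libraries before surgery. This held for most of the list, as 118 of the 177 names had their highest serum CPM in that library, which had the lowest serum total. The matching number for the other miRNA names is not given here, so this is not read as particular to the 177 names. By count instead of CPM, that library held the highest serum value of 62 names.

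By group medians of CPM, all 12 names were higher in EVs than in serum before surgery and 11 of 12 after it. All 12 were lower in EVs after than before surgery. The 12 were chosen for high CPM over these same libraries, with EVs weighing more, so these counts are partly set by the choice. In the edgeR fits given further below, directions were mixed. For EVs after against before surgery, log2 fold changes were 0.32 for miR-4501 and 0.45 for miR-4290, but −1.45 for miR-4459. For EVs against serum before surgery, they were −1.05 for miR-4649-3p and 0.58 for miR-4501. Over the 177 names, the median CPM was higher in EVs than in serum for 120 and lower for 35 before surgery, and higher for 115 and lower for 23 after it. Of the other 898 miRNA names, 615 were higher and 206 lower before surgery, and 579 higher and 185 lower after it. The shares that were higher, 67.8% of the 177 and 68.5% of the other names before surgery and 65.0% and 64.5% after it, were thus close to each other. In EVs after against before surgery, 31 of the 177 were higher and 90 lower (17.5% and 50.8%), against 17.5% and 57.8% of the other names.

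**Figure D4:**
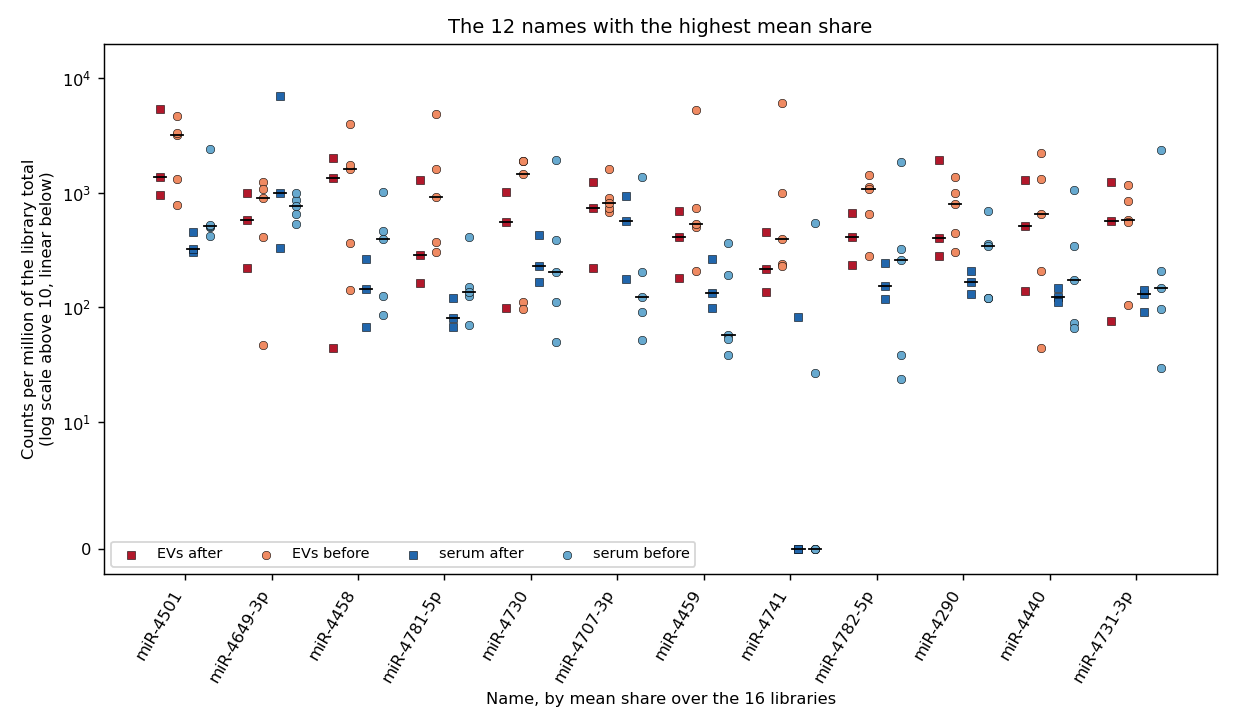
CPM of the 12 names with the highest mean share, 1 point per library and a black line at the median of each group; the axis is a log scale above 10 and linear below. For miR-4501 every EV library lies above every serum library but 1, and miR-4741 is at 0 in 5 of 8 serum libraries.

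No name of the 177 differed between EVs after and before surgery past the threshold (edgeR, adjusted p under 0.05). Of 126 names tested 0 were called, with a background of 0% of all names tested. At an unadjusted p under 0.05 there was 1 of 126, against 1.75% of all names, and DESeq2 and limma-voom called 0. The median fitted log2 fold change was −0.03 for the tested names and −0.02 for all names. Scaled by library totals instead of TMM factors, these medians were −0.58 and −0.55.

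The name with the smallest p was miR-4280, which had 0, 186 and 4 counts in EVs of animals D, E and F after surgery, against 6, 4, 16, 12 and 9 counts in EVs of animals A to E before it. Its log2 fold change of 3.22 (SE 1.31, adjusted p = 0.999 by edgeR) rested on animal E after surgery, and by limma-voom it was −0.89. miR-4436b-5p, with 64, 10 and 131 counts after surgery, against 14, 28, 73, 37 and 21 before it, showed a log2 fold change of 1.30 (SE 0.73). miR-4540 had 75, 14 and 129 counts after, against 14, 10, 91, 37 and 67 before (1.12, SE 0.74). Both lay below 0 without animal F after surgery, at −0.11 and −0.06, and miR-4540 was at −0.44 with the animal as a block. On the lower side, miR-4510 had 31, 33 and 10 counts after, against 170, 14, 43, 104 and 54 before (−1.62, SE 0.81), and miR-4451 had 51, 3 and 4 after, against 91, 20, 50, 54 and 11 before (−1.55, SE 0.94). Also among the 4 smallest p in their direction were miR-4529-5p (0.73, SE 0.50, but −0.13 with the animal as a block), miR-4661-5p (−1.52, SE 0.88) and miR-4741 (−1.59, SE 0.94). All these names overlapped between the groups, each with an adjusted p of 0.999 by edgeR.

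In serum after against before surgery, 0 of 86 tested names were called (edgeR), with a background of 0%, and DESeq2 and limma-voom also called 0. At an unadjusted p under 0.05 there were 7 of 86 (8.14%), close to the 7.76% of all names. The fitted log2 fold change had a median of −0.12 for the tested names and −0.20 for all names, and −1.08 and −0.88 when scaled by library totals.

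miR-4707-3p had 490, 100 and 46 counts in serum of animals D, E and F after surgery, against 32, 50, 33, 106 and 19 counts in animals A to E before it, with a log2 fold change of 1.91 (SE 0.66). miR-4322, which led the 177 names in serum of animal F after surgery, had 434, 96 and 200 counts after, against 122, 89, 35, 51 and 61 before (1.50, SE 0.64). miR-4258 (1.84, SE 0.72) and miR-4469 (1.87, SE 0.74) were the other names with the smallest p on this side. In all of them animal D or F after surgery held the highest count. In CPM each of them overlapped between the groups. After surgery miR-4707-3p ran from 176 to 946 CPM and miR-4469 from 136 to 496, against 51.6 to 1377 and 5.43 to 597 before it. miR-4322 ran from 543 to 838 CPM and miR-4258 from 64.9 to 645 after surgery, against 54.8 to 772 and 53.2 to 234 before it. On the lower side, miR-4661-5p was at 0 in all 3 serum libraries after surgery and had 22, 0, 15, 54 and 26 counts before it. miR-4529-5p had 2, 0 and 0 counts after, against 35, 0, 22, 40 and 16 before, with a log2 fold change of −5.30 (SE 2.07). It was at 0 in the 3 serum libraries that share their zeros and in no other. The adjusted p of these 6 names was 0.581 by edgeR. miR-4803 (−2.21, SE 1.47) and miR-4655-5p (−2.32, SE 1.57) had an adjusted p of 0.968 by edgeR.

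Between EVs and serum before surgery, 5 of 106 tested names were higher in EVs (edgeR), which is 4.72% against a background of 2.73% of all names, and 0 were lower, against 0.26% of all names. They were miR-4534, miR-4538, miR-4660, miR-4677-5p and miR-4758-5p, each with an adjusted p of 0.0134 by edgeR. All 5 were at 0 in each of the 5 serum libraries before surgery and above 0 in each of the 5 EV libraries. They thus passed the filter on low counts through the EV libraries alone. These calls follow from the shared zeros and that filter, and are not read as support for a difference in level. At an unadjusted p under 0.05 there were 14 of 106 (13.2%), against 13.9% of all names. With the animal as a block, 0 of 106 were called, and the 5 names had an adjusted p of 0.335 by edgeR. DESeq2 called 9 of 104 (background 7.14%) and limma-voom 28 of 106 (background 19.5%).

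miR-4677-5p had 43, 20, 185, 128 and 40 counts in EVs of animals A to E before surgery. miR-4538 had 33, 21, 54, 53 and 22, and miR-4758-5p had 39, 19, 69, 25 and 20 counts there. miR-4534 had 25, 7, 65, 54 and 23, and miR-4660 had 22, 14, 39, 26 and 59 counts. The medians of the names above 0 in these libraries were 34, 20, 47, 45 and 39 counts, so that miR-4677-5p lay above the median in 4 of them and level with it in animal B. After surgery the same 5 names were above 0 in all 3 EV libraries, with 9 to 92 counts. In serum after surgery, miR-4677-5p had 17 and miR-4660 had 46 counts in animal D, and all 5 names were at 0 in animals E and F.

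All 5 calls were thus names at 0 in every serum library from before surgery. Among all 177 names, 11 were at 0 in all 5 serum libraries and above 0 in all 5 EV libraries before surgery (6.21%, against 5.23% of the other miRNA names). Of these 11, the filter on low counts let 5 through to the test, and all 5 were called. Over all 1105 names, 58 had this pattern, 21 of them were tested and all 21 were called. Among the 44 names above 0 in every library compared, 0 were called by edgeR, and 4 had an unadjusted p under 0.05. The share over all names is not given here for this subset, so these counts are not read as particular to the 177 names. The median log2 fold change of EVs over serum was 0.65 for the tested names and 0.35 for all names, and 1.29 and 1.05 when scaled by library totals. Names that passed the filter through EVs alone, at 0 in serum, enter these medians. The medians are therefore partly set by the filter and are not read as particular to the 177 names.

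**Figure D5:**
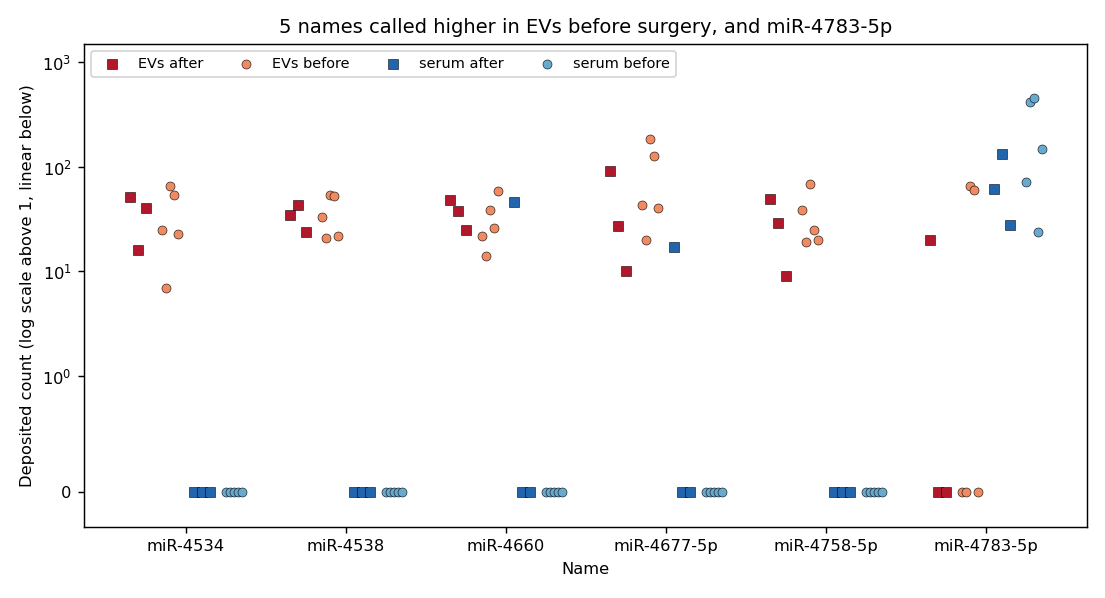
Deposited counts of the 5 names called higher in EVs than in serum before surgery, and of miR-4783-5p, 1 point per library; the axis is a log scale above 1 and linear below. The 5 names lie at 0 in every serum library from before surgery, and miR-4783-5p is above 0 in all 8 serum libraries and at 0 in 5 of 8 EV libraries.

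After surgery, 0 of 101 tested names differed between EVs and serum (edgeR), with a background of 0%. At an unadjusted p under 0.05 there were 9 of 101 (8.91%), against 8.03% of all names. DESeq2 called 7 of 99 (background 5.65%) and limma-voom 8 of 101 (background 5.62%). The count depended on serum of animal D after surgery. Without that library, edgeR called 43 of 121 names, all higher in EVs (background 29.8%). The 2 serum libraries then left, of animals E and F, share their zeros, and 108 of the 177 names are at 0 in both and in animal B before surgery. The median log2 fold change was 0.64 for the tested names and 0.30 for all names, and 1.99 and 1.48 when scaled by library totals. Names at 0 in all serum libraries after surgery enter these medians too, so they are partly set by the filter.

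miR-4529-5p had the smallest p, with 96, 30 and 115 counts in EVs of animals D, E and F after surgery, against 2, 0 and 0 counts in serum (log2 fold change 6.49, SE 1.40, adjusted p = 0.145 by edgeR). Its zeros lay in serum of animals E and F, libraries that share their zeros. miR-4251 had 110, 24 and 80 counts, miR-4259 had 33, 51 and 34 and miR-4647 had 109, 12 and 60 counts in EVs after surgery, and all 3 were at 0 in serum after surgery (adjusted p = 0.145 by edgeR). In each of these 4 names the EV libraries were all above the serum libraries, which for the 3 at 0 in serum follows from the zeros. Other tested names, such as miR-4501 and miR-4780, were separated in the same way. The share of all names so separated is not given here. On the other side, miR-4783-5p had 20, 0 and 0 counts in EVs, against 61, 134 and 28 counts in serum (−4.50, SE 1.68, adjusted p = 0.486 by edgeR). miR-4322 (−2.24, SE 0.82), miR-4469 (−1.55, SE 0.70) and miR-4649-3p (−3.16, SE 1.45) had adjusted p of 0.465 to 0.629 by edgeR.

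miR-4783-5p ran against most of the list. It led the 177 names in serum of animals B and C before surgery, with 422 and 460 counts, and had 72, 24 and 148 counts in animals A, D and E. In EVs before surgery it had 65 and 60 counts in animals C and D and was at 0 in animals A, B and E. Those 3 libraries and EVs of animals E and F after surgery, where it was also at 0, are the 5 EV libraries that share their zeros.

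The change with surgery was also compared between EVs and serum, in an interaction over all 16 libraries. Of 153 tested names 0 were called (edgeR), with a background of 0%, and 10 had an unadjusted p under 0.05 (6.54%, against 8.35% of all names). DESeq2 called 1 of 153 (background 0.296%), miR-4463, which had 0 counts in all EV libraries after surgery, 0, 0, 11, 25 and 0 counts in EVs of animals A to E before it, 51, 14 and 8 counts in serum after surgery and 0, 99, 0, 0 and 0 counts in serum before it. miR-4529-5p had the smallest p by edgeR, with a log2 interaction of 5.96 (SE 1.64, adjusted p = 0.414 by edgeR). It passed without serum of animal B before surgery (adjusted p = 0.0216). The other names with the smallest p, which were miR-4661-5p, miR-4647 and miR-4259 on the higher side and miR-4677-5p, miR-4660, miR-4752 and miR-4687-3p on the lower, were each at 0 in all libraries of 1 group. Their adjusted p was 0.444 to 0.604 by edgeR.

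Both arms of 1 hairpin were listed for 15 hairpins, and both were above 0 in all 16 libraries for miR-4781 and miR-4787. For most miRNAs 1 arm, the guide, is far more abundant than the other, which is degraded. miR-4781-5p had 12 to 333 counts and miR-4781-3p 15 to 122. The 5p arm was higher in 11 libraries, the 3p arm in 4, and both were equal in 1, and the 5p arm held 64.8% of their summed counts. miR-4787-5p had 10 to 220 counts and miR-4787-3p 3 to 161, each arm was higher in 8 libraries, and the 5p arm held 51.5% of the sum. Neither hairpin had an arm that led in all libraries.

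miR-4732 lies in the human genome beside miR-144 and miR-451, a pair made together in red blood cell precursors. miR-4732-3p had 24, 5 and 36 counts in EVs of animals D, E and F after surgery, against 14, 9, 24, 32 and 30 counts in EVs of animals A to E before it. In serum it had 8, 0 and 0 counts after surgery, against 1, 0, 6, 32 and 8 counts before it. miR-451a, with 115 to 25620 counts per library, lay above it in every library. miR-144-3p ran from 4 to 832 counts and lay below it in EVs of animals A and E before surgery, with 5 and 16 counts. miR-144-5p ran from 6 to 453 counts. It lay below miR-4732-3p in EVs of animal B before surgery (6 counts) and of animal F after it (21 counts). In EVs of animal E before surgery both had 30 counts.

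The 3 names in the same range that were left out, miR-4454, miR-4488 and miR-4532, together held 0.0412% to 2.68% of a library's counts, and miR-4488 alone reached 26416 CPM, against a highest level of 6995 CPM among the 177 names. With them added, the share in serum after surgery was 0.285 percentage points higher than before instead of 0.933 points lower (exact permutation p = 0.929).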

How the data were processed

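Small RNA was measured in 16 libraries of sheep serum and serum EVs, prepared with a QIAseq miRNA kit per the labels' protocols. The authors deposited whole-number counts per miRNA or piRNA name. The submitters' processing notes name the human build hg19 and, as a tool, bcl2fastq 2.20.0.422. For the aligner, the counter, the miRNA annotation, filters and molecular identifiers, the setting is not given in the sources used here. The members and lists were chosen with earlier results of these data known. Nothing says that samples of a group came from separate cultures or animals beyond the letters in the titles, so p-values measure the spread between these samples, which may be technical.

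Fits ran on all names in R 4.3.3 by the quasi-likelihood test of edgeR 4.0.16, with TMM factors of 0.278 to 2.94, a minimum count of 10 in filterByExpr and p adjusted after Benjamini-Hochberg over all names tested (threshold 0.05), and fold changes are fitted log2 values of the first group over the second. The edgeR steps were also run on simulated counts, drawn from mean levels and library totals without the shared zeros seen here. That run therefore cannot speak for calls against a group at 0. Shares and numbers of names above 0 were compared with exact permutation tests in Python 3.11.15. Alternatives were DESeq2 1.42.0 and limma-voom (limma 3.58.1), other scaling and filters, the animal as a block, all groups in 1 fit, thinning and each library left out. Fits on names above 0 in every library compared and on the 5 EV libraries that share zeros were added after seeing the data, as was the within-animal test of numbers of names above 0. The letters were taken to name animals and so to pair libraries, an assumption that the labels do not spell out. Deviations from group means correlated, over 375 names, at −0.306 to 0.694 between EVs and serum of a letter before surgery and at −0.183 to 0.129 after it (negative in 5 of 8 pairs), and at 0.115 to 0.418 between times. Named were the 12 names of highest mean share and, per comparison, those past the threshold or else the 4 with the smallest p per direction, the hairpins with both arms above 0 throughout, and miR-4732; any other name is marked as chosen with its values in view.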

Additional observations from a re-analysis of the deposited data

Results flagged for a closer look

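In groups of 5 libraries, 40 sets of values were checked for a highest or lowest library far from the others (Dixon's criterion at 95%), and 14 stood out. Chance would give about 1 in 20 for independent sets chosen without regard to their values. That rate does not apply here, since the sets share libraries and 12 of the 14 are names chosen for a high mean share over the same libraries. Serum of animal D before surgery accounts for 9 of the 14. There the share of the 177 names was 7.29%, against 0.609% to 1.68% in the other 4 serum libraries before surgery. miR-4501 was at 2429 CPM there (others 424 to 526), miR-4781-5p at 416 CPM (70.5 to 152), miR-4730 at 1922 CPM (50.1 to 386) and miR-4707-3p at 1377 CPM (51.6 to 203). miR-4741 was at 545.5 CPM (others 0 to 26.6), miR-4782-5p at 1857 CPM (23.5 to 323), miR-4440 at 1052 CPM (65.7 to 342) and miR-4731-3p at 2377 CPM (29.7 to 209). That library had the lowest total of the serum libraries, 76988 counts, and its part in these values was not tested.

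In EVs before surgery, miR-4781-5p at 4906 CPM (others 304 to 1627) and miR-4741 at 6158 CPM (231 to 1006) stood out in animal A, and miR-4707-3p at 1630 CPM (678 to 902) and miR-4459 at 5320 CPM (206 to 737) in animal D. Serum of animal B before surgery had 68 of the 177 names above 0, against 114 to 130 in the other 4 libraries.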

How the results depend on the processing

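Counts of called names between EVs and serum before surgery were 5 by edgeR, all higher in EVs (background 2.73% of all names tested). They were 9 by DESeq2 (background 7.14%) and 28 by limma-voom (background 19.5%). They were 10 without a filter, 0 with a minimum count of 50 (24 names tested), 9 with all groups in 1 fit and 0 under the animal block. They were also 0 when restricted to names above 0 in every library compared, and 5 to 15 with single libraries left out (15 without serum of animal D). The block changed no other call. Between EVs and serum after surgery the count was 0 by edgeR (background 0%), 7 by DESeq2 (background 5.65%) and 8 by limma-voom (background 5.62%). It was 0 to 43 with single libraries left out (43 without serum of animal D after surgery, background 29.8%). For the interaction it was 0 by edgeR (background 0%), 1 by DESeq2 (background 0.296%) and 0 to 1 with single libraries left out (1 without serum of animal B before surgery). Where no background stands beside a count, the share over all names is not given here. Such a count is therefore not read as particular to these names. After against before surgery, all alternatives run gave 0.

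The share in serum after minus before surgery, −0.933 percentage points, was 0.285 with miR-4454, miR-4488 and miR-4532 added and −1.37 to 0.305 with single libraries left out. EVs minus serum before surgery, 3.09 points, ran from 2.43 to 4.33 (highest without serum of animal D). The log2 fold change of miR-4280 in EVs after against before surgery was −0.89 by limma-voom. That of miR-4436b-5p ran from −0.11 to 1.75 and that of miR-4540 from −0.064 to 1.55 with single libraries left out, both lowest without EVs of animal F after surgery. With the animal as a block, miR-4540 was at −0.44 and miR-4529-5p at −0.13. Fewer names or samples tested apply to the filter, the subset and the left-out libraries; the cause of the other differences was not tested. Low counts and 3 to 5 libraries per group limit what could be detected.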
